A study of Arabidopsis thaliana with 8 samples.

Results

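Sulfate uptake and assimilation were followed in janus-2 and Col-0 inflorescences through 10 Arabidopsis thaliana genes, given by locus. The list held the ATP sulfurylases APS1 (AT3G22890), APS3 (AT4G14680) and APS4 (AT5G43780), the APS reductase APR3 (AT4G21990), and the sulfate transporters SULTR1;1 (AT4G08620), SULTR1;2 (AT1G78000) and SULTR2;1 (AT5G10180). It was completed by SDI1 (AT5G48850), LSU1 (AT3G49580) and LSU2 (AT5G24660), genes of the response to low sulfur. These 3 transporters are named below by their loci, as in the deposited tables. All 10 were among the 28775 genes with deposited mRNA counts, and 9 passed the filter on low counts among 22990 genes tested. janus-2 is a hypomorphic allele of JANUS, which encodes a homologue of a U2 snRNP assembly factor known from yeast and human. It was made with CRISPR/CAS9, the plants were backcrossed to Col-0 and are sterile, and one allele stands for the mutation. Col-0 is the wild type in whose background the allele was made. Inflorescences of untreated plants grown in long days were sampled, with 2 biological replicates of each genotype for mRNA and 2 for small RNA, and no plant age was given. The mature miR395 counts of the small RNA libraries were set beside the genes as context.

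Plants take up sulfate through transporters of the SULTR family. ATP sulfurylase activates it to adenosine phosphosulfate (APS), which is either reduced by APS reductase on the way to cysteine or phosphorylated by APS kinase for sulfation, as in glucosinolate synthesis. Low sulfur raises miR395, which guides cleavage of APS1, APS3, APS4 and AT5G10180 transcripts, and also raises AT1G78000, the SDI and LSU genes and APR3 in Arabidopsis.

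The genotype was checked by JANUS (AT2G18510) itself, which had 1158 and 1141 counts in janus-2, against 3107 and 3579 counts in Col-0. The mRNA libraries held 56360882 to 65578130 counts on genes and the small RNA libraries 1950664 to 2160372 counts on mature miRNAs. Levels are given below as CPM, counts scaled to library sizes that were adjusted by the trimmed mean of M values (TMM). Replicates differed by more than the sampling noise and were counted as 2 samples. For mRNA the chi-square per degree of freedom between replicates was 2.51 in janus-2 and 2.34 in Col-0. For small RNA it was 53.5 in janus-2 and 145 in Col-0. The floral markers AP1, AG and SEP3 were between 100.7 and 204.9 CPM in every library, so that floral tissue was present in both genotypes. By the rule for calls given below, 18.5% of all tested genes were higher and 27.2% lower in janus-2. Of the 6 floral markers, AP3 and PI were lower in janus-2 (log2 fold changes of -0.86 and -1.46) and the other 4 were not called. Of these 4, AP1 had a log2 fold change of -0.46, under the fold threshold used below. LFY was low in every library, at 1.7 and 1.8 CPM in janus-2, against 1.1 and 2.2 CPM in Col-0. The 6 leaf photosynthesis markers were not called, with a median log2 fold change of -0.024. All 11 tested of 12 pollen markers and all 12 tapetum markers were lower in janus-2, beside 27.2% of all tested genes. The summed pollen markers were 24.0 and 25.8 CPM in janus-2, against 3121 and 3146 CPM in Col-0. VGD1 alone had 1899 and 1905 CPM in Col-0. Single pollen markers fell by very different amounts, with log2 fold changes from -12.1 (MGH3) to -1.49 (CNGC18). The summed tapetum markers were 115 and 113 CPM in janus-2, against 848 and 832 CPM in Col-0. Of the pollen markers, MGH3 was at 0 counts in both janus-2 libraries, and GEX2 was at 0 counts in all 4 libraries. In these bulk samples fewer cells of a type and less RNA per cell cannot be told apart. What part the loss of pollen and tapetum marker RNA had in the rises and falls given below was not tested.

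Of the 9 sulfate genes tested, 8 were higher and 1 was lower in janus-2 than in Col-0. SDI1, LSU1 and LSU2, APR3, APS1, APS3, AT1G78000 and AT5G10180 rose, and APS4 fell. Calls were made at an adjusted p of at most 0.05 (edgeR's quasi-likelihood test, Benjamini-Hochberg adjustment over all 22990 genes) and a fold change of at least 1.5. By this rule 18.5% of all tested genes were higher and 27.2% were lower in janus-2. Both janus-2 libraries lay above both Col-0 libraries in the 8 higher genes, as in 44.2% of all tested genes, and below both in APS4, as in 46.6% of them. The median log2 fold change of the 9 sulfate genes was 1.89, and that of all tested genes was -0.019. The largest adjusted p among the 9 genes was 2.87e-128, from edgeR. Such values rest on the closeness of the replicates, whose common coefficient of variation was 2.26%, and measure no more than the spread between these libraries. The summed level of the 10 genes was 952 and 948 CPM in janus-2, against 315 and 320 CPM in Col-0.

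**Figure D1:**
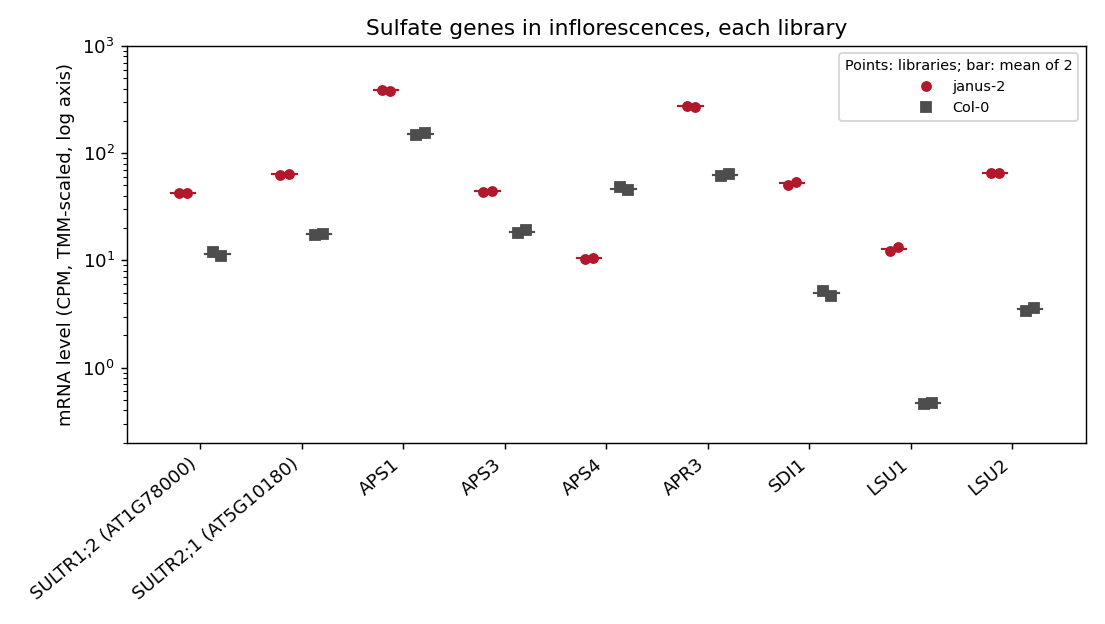
Levels of 9 sulfate genes in each mRNA library (CPM, TMM-scaled, log axis), with janus-2 as circles, Col-0 as squares and the mean of 2 libraries as a bar. In 8 genes both janus-2 libraries lie above both Col-0 libraries and in APS4 both lie below. The transporter AT4G08620, with 2 counts at most in any library, is not drawn.

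AT4G08620 and AT1G78000 encode the high-affinity transporters that take sulfate up at the root surface. AT4G08620 was nearly absent from the inflorescence libraries, with 0 and 0 counts in janus-2 and 0 and 2 counts in Col-0. These values lie under a floor of 3 counts (0.0457 to 0.0532 CPM), so that AT4G08620 was not tested and a change was not detectable at this depth. AT1G78000 was at 42.8 and 43.0 CPM in the janus-2 libraries, against 12.1 and 11.1 CPM in the Col-0 libraries. The spread between replicates was 0.173 CPM in janus-2 and 0.711 CPM in Col-0 (SD, n = 2 each), far under the difference between genotypes. The log2 fold change of AT1G78000 was 1.89 (standard error 0.080 from DESeq2), a 3.72-fold higher level in janus-2.

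AT5G10180, a low-affinity transporter of the vascular tissue, moves sulfate between organs and is the transporter among the miR395 targets. It had 62.4 and 64.5 CPM in janus-2 and 17.3 and 17.7 CPM in Col-0. This gave a log2 fold change of 1.86 (standard error 0.065). The fold changes of AT5G10180 and AT1G78000 were 3.63 and 3.72. Within each library the log2 ratio of AT5G10180 to AT1G78000 counts, which depends on no scaling, was 0.55 and 0.58 in janus-2, against 0.52 and 0.68 in Col-0. The libraries of the genotypes overlapped in this ratio (p = 1, two-sided exact permutation test). With 2 libraries against 2 this test cannot give a p under 0.333.

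The ATP sulfurylase genes under miR395 did not move together. APS1, which encodes a plastid enzyme, was at 387 and 384 CPM in janus-2, against 149 and 154 CPM in Col-0, a log2 fold change of 1.35 (standard error 0.027). APS3 was at 43.7 and 44.4 CPM in janus-2, against 17.8 and 19.1 CPM in Col-0, a log2 fold change of 1.25 (standard error 0.072). Both rose more than 2-fold, with no overlap between genotypes. APS4 went the other way, with 10.4 and 10.6 CPM in janus-2, against 48.0 and 45.4 CPM in Col-0. Its log2 fold change was -2.15 (standard error 0.080), a 4.44-fold lower level in janus-2. It was the single tested gene of the list that fell. The pollen and tapetum markers fell in the same libraries, and their part in the fall of APS4 was not tested.

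APS2, the fourth ATP sulfurylase gene and not a target of miR395, had 158 and 156 CPM in janus-2, against 128 and 133 CPM in Col-0. By edgeR it was past the adjusted p threshold (3.12e-22), but its log2 fold change of 0.26 did not reach the fold threshold. The counts on the 4 genes were therefore divided differently in the genotypes. APS4 held 1.73% (95% exact binomial interval 1.60% to 1.87%) and 1.79% (1.66% to 1.94%) of these counts in janus-2, against 14.0% (13.5% to 14.5%) and 12.9% (12.5% to 13.4%) in Col-0. APS1 held 64.7% and 64.6% in janus-2, against 43.4% and 43.7% in Col-0. The intervals cover counting error only, and the shares are of counts not divided by gene length. The log2 ratio of APS4 to APS1 counts was -5.22 and -5.17 in janus-2, against -1.63 and -1.76 in Col-0, a difference of -3.50 that no scaling of the libraries can change. Its exact permutation p was 0.333 (two-sided), the smallest that this design can give. The log2 ratio of APS3 to APS1 counts was -3.15 and -3.11 in janus-2, against -3.06 and -3.01 in Col-0. This small difference of -0.096 also came without overlap (p = 0.333, two-sided exact permutation test).

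**Figure D2:**
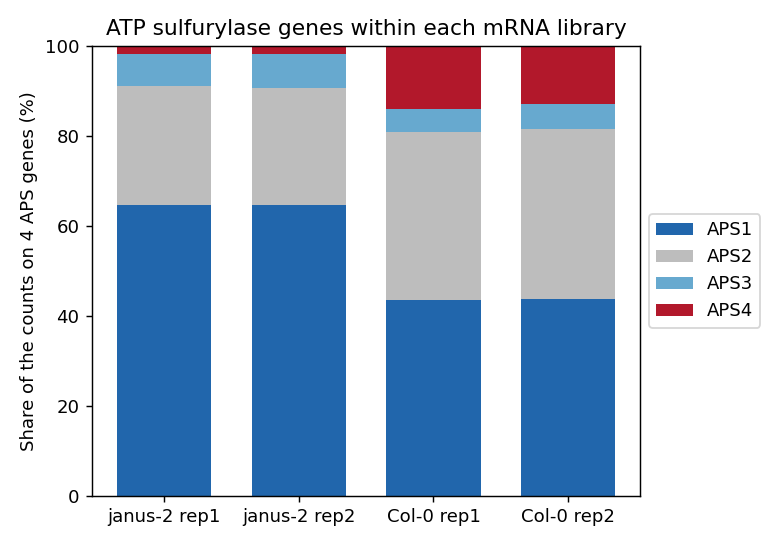
Share of the counts on the 4 ATP sulfurylase genes held by each gene (%, stacked bars) in each mRNA library, janus-2 left and Col-0 right. APS4 takes 1.73% and 1.79% in the janus-2 libraries, against 14.0% and 12.9% in the Col-0 libraries.

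APR3, one of the APS reductases that commit sulfate to reduction, was at 278 and 269 CPM in janus-2, against 61.7 and 64.1 CPM in Col-0. It was 4.35-fold higher in janus-2 (log2 fold change 2.12, standard error 0.035). Its paralogues rose too. APR1 had a log2 fold change of 1.56 and APR2 one of 2.13, with 218 and 226 CPM of APR2 in janus-2, against 51.6 and 50.2 CPM in Col-0. The log2 ratio of APR3 to APR2 counts was 0.35 and 0.25 in janus-2, against 0.26 and 0.35 in Col-0, and did not separate the genotypes (p = 0.667, two-sided exact permutation test). That of APR3 to APR1 was 0.75 and 0.67 in janus-2, above 0.15 and 0.15 in Col-0. APR3 overlaps APG8A (AT4G21980) in the RefSeq annotation, and that gene was lower in janus-2 (log2 fold change -0.86). APS3 overlaps AT4G14675 and APS4 overlaps AT5G43770, both protein-coding. AT5G43770 had 4 and 0 counts in janus-2, against 0 and 0 counts in Col-0. How reads in these overlaps were counted is not given in the sources used here.

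Among the 10 genes, those of the low-sulfur response had the largest rises. SDI1, a repressor of glucosinolate synthesis under sulfur limitation, had 51.0 and 53.5 CPM in janus-2, against 5.21 and 4.67 CPM in Col-0. SDI1 was thus 10.6-fold higher in janus-2 (log2 fold change 3.41, standard error 0.091). LSU1 and LSU2 encode small coiled-coil proteins that bind other proteins. LSU1 was at 12.2 and 13.5 CPM in janus-2, against 0.459 and 0.470 CPM in Col-0, where it had no more than 26 and 31 counts. Its log2 fold change of 4.78 (standard error 0.24) is the largest of the list and the least precise. LSU2 was at 64.9 and 65.4 CPM in janus-2, against 3.41 and 3.59 CPM in Col-0, a log2 fold change of 4.21 (standard error 0.093). When the 22990 tested genes were ordered from the largest rise down, LSU1 stood at place 100, LSU2 at 151, SDI1 at 271 and APR3 at 712. AT1G78000, AT5G10180, APS1 and APS3 followed at places 896, 922, 1460 and 1634. At the other end of this order, APS4 was at place 2803 from the largest fall.

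**Figure D3:**
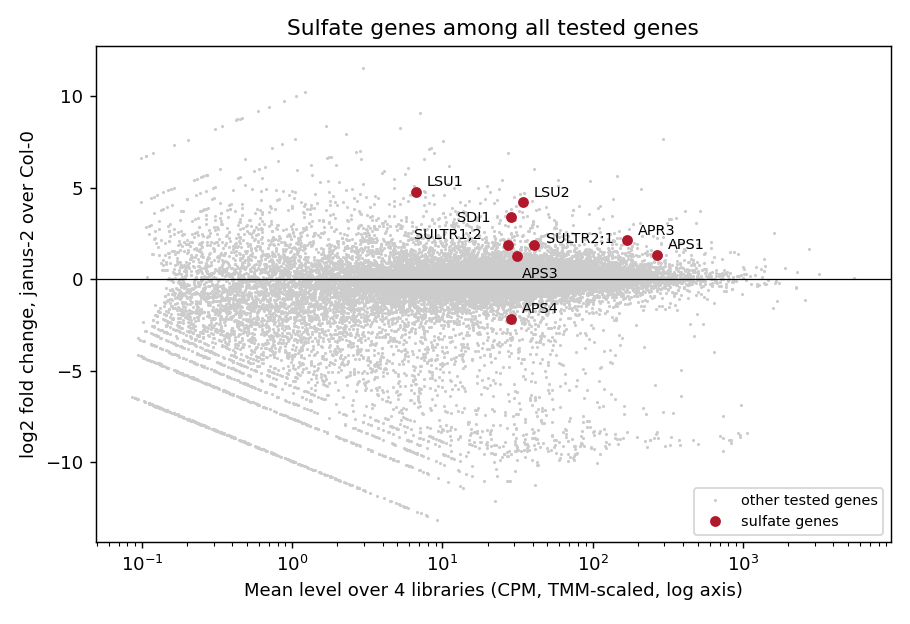
log2 fold change of janus-2 over Col-0 against the mean level over 4 mRNA libraries (CPM, log axis) for all tested genes, with the sulfate genes as large points. LSU1, LSU2 and SDI1 lie at 4.78, 4.21 and 3.41, and APS4 at -2.15.

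In the small RNA libraries miR395 was higher in janus-2 as well. The table has 6 mature entries, in which miR395a, d and e differ by at most 1 count in any library, as do miR395b, c and f, so that they were read as 2 measurements and not 6. miR395a had 1449 and 1580 counts in janus-2, against 84 and 28 counts in Col-0, or 729.8 and 868 CPM against 35.9 and 13.1 CPM. miR395b had 763 and 821 counts in janus-2, against 75 and 36 counts in Col-0, or 384 and 451 CPM against 32.1 and 16.8 CPM. The Col-0 replicates of miR395a differed by a factor larger than those of any tested sulfate mRNA. edgeR gave an adjusted p of 0.00017 for both forms. The log2 fold changes were 5.02 for miR395a (standard error 0.51) and 4.09 for miR395b (standard error 0.44). Among the 304 miRNA entries tested by edgeR, where each of the 6 miR395 entries counts singly, 18.1% were higher and 14.1% lower at an adjusted p of at most 0.05. This balance depended on the scaling, with 55 higher and 43 lower miRNAs here, but 45 and 51 by table totals, 42 and 67 by upper-quartile scaling and 43 and 85 by all aligned reads. Over the tested miRNAs the log2 fold change had a median of 0.11, against -0.069, -0.23 and -0.23 under these 3 scalings, under which miR395a had 4.83, 4.65 and 4.60 and miR395b 3.90, 3.73 and 3.69. Without Col-0 replicate 1 the value of miR395a was 5.95, and without Col-0 replicate 2 it was 4.43.

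The forms also differed in balance. The count of miR395a was 1.90 and 1.92 times that of miR395b in janus-2, against 1.12 and 0.778 times in Col-0. Reads common to both forms cannot be separated in these tables. miR395a stood at place 51 and 48 of the 427 listed miRNAs in janus-2, against place 159 and 213 in Col-0.

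**Figure D4:**
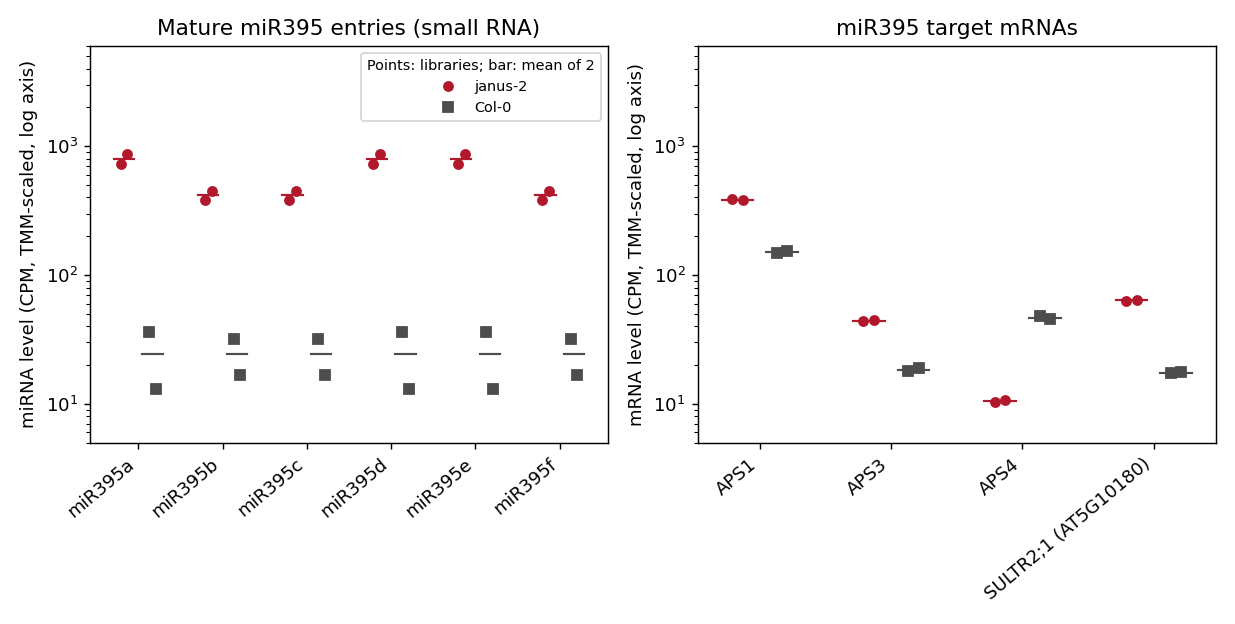
Levels in each library (CPM, TMM-scaled within each assay, log axis) of the 6 mature miR395 entries, left, and of their 4 target mRNAs, right, with janus-2 as circles, Col-0 as squares and the mean as a bar. All miR395 entries are higher in janus-2, as are 3 of the targets, while APS4 is lower.

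Set beside miR395, its targets thus went in both directions. Of the 4 targets, 3 (APS1, APS3 and AT5G10180) were higher in janus-2 together with the miRNA, and APS4 was lower. The median log2 fold change of the 4 targets was 1.30. The 5 tested genes of the list that are not targets were all higher, with a median of 3.41 and a range of 1.89 to 4.78. SDI1, LSU1 and LSU2, genes of the response to low sulfur, are among these 5. Over all tested genes 18.5% were higher and 27.2% lower. APS2, outside the list and not a target, had 0.26. Of 27 further pathway genes outside the sulfur limitation response, 12 were higher and 4 lower, with a median of 0.47. Whether being a target bears on the size of the change was not tested. The mRNA and small RNA libraries were scaled separately, and no test was made across them. Cleavage of the targets was not measured.

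The other sulfate transporters were examined as context. Of 9, 5 were higher and 3 lower in janus-2, beside 18.5% and 27.2% of all tested genes. AST56 (AT1G77990), the neighbour of AT1G78000 on the chromosome and another vascular transporter, had 82.1 and 85.5 CPM in janus-2, against 15.4 and 14.6 CPM in Col-0 (log2 fold change 2.49). SULTR4;1 and SULTR4;2, which release sulfate from the vacuole, rose by 1.09 and 1.83 on the log2 scale. SULTR3;2 and SULTR3;4 rose by 1.39 and 0.88, and AST91 (AT1G23090, 0.35) did not reach the fold threshold.

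The falls in the transporter family were of very different size. SULTR1;3 (AT1G22150), a phloem transporter, had 2 and 1 counts in janus-2, against 801 and 920 counts in Col-0. From the summed counts it was 570.2-fold lower in janus-2 (95% exact counting interval 195-fold to 2768-fold). This interval pools the 2 libraries of each genotype and covers counting error only. Both janus-2 counts lie under the floor of 3 counts, so that the size of the fall is uncertain. SULTR3;5, which supports transport by the product of AT5G10180 in roots, had 2.14 and 2.51 CPM in janus-2, against 67.9 and 69.9 CPM in Col-0, a log2 fold change of -4.89 (standard error 0.11). SULTR3;1, a transporter of the chloroplast envelope, was at 73.9 and 71.6 CPM in janus-2, against 119 and 116 CPM in Col-0 (log2 fold change -0.69). The pollen and tapetum markers fell in the same libraries, as given above, and their part in these falls was not tested.

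Of the genes for later steps, SIR, the sulfite reductase that acts after APS reductase, rose by 0.64 on the log2 scale, with 326 and 322 CPM in janus-2, against 209.9 and 206 CPM in Col-0. Under upper-quartile scaling its value of 0.57 was under the fold threshold. Of 8 genes for cysteine synthesis, 3 were higher and 0 lower, while under upper-quartile scaling OASC passed the threshold as lower (log2 fold change -0.62). The shares over all tested genes were 18.5% higher and 27.2% lower. The 3 higher genes encode serine acetyltransferases, which make the O-acetylserine that accepts sulfide: SERAT3;2 (AT4G35640, log2 fold change 2.33), SERAT2;1 (0.98) and SERAT2;2 (0.76). Of these, AT4G35640 had 21.1 and 21.1 CPM in janus-2, against 3.99 and 4.36 CPM in Col-0. Neither of the 2 genes for glutathione synthesis was called, with log2 fold changes of 0.33 for GSH1 and 0.30 for GSH2. Of 4 APS kinases, which supply the sulfation branch, APK2 rose by 1.64 on the log2 scale and APK3 fell by 1.86. APK2 was at 43.8 and 42.2 CPM in janus-2, against 13.6 and 14.1 CPM in Col-0. APK3 was at 7.04 and 6.05 CPM in janus-2, against 22.9 and 24.8 CPM in Col-0.

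Of 8 further genes of the response to sulfur limitation, 6 were higher and 1 lower, with a median log2 fold change of 2.08. Among all tested genes the shares were 18.5% higher and 27.2% lower. BGLU28 and BGLU30, beta-glucosidases raised by sulfur deficiency, had log2 fold changes of 3.91 and 3.46, and BGLU28 reached 205 and 205 CPM in janus-2, against 13.9 and 13.5 CPM in Col-0. GGCT2;1 (AT5G26220), which degrades glutathione, was at 97.4 and 96.0 CPM in janus-2, against 14.2 and 14.2 CPM in Col-0 (log2 fold change 2.77). SDI2, the paralogue of SDI1, rose by 1.39 and SHM7 by 1.05 on the log2 scale. SLIM1, the transcription factor through which many of these genes respond to low sulfur, had 25.0 and 24.1 CPM in janus-2, against 22.7 and 25.2 CPM in Col-0, and the genotypes overlapped. edgeR gave it a log2 fold change of 0.030 with an adjusted p of 0.626 (standard error 0.083).

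The LSU genes lie in neighbouring pairs, LSU1 with LSU3 and LSU2 with LSU4. LSU3 was at 31.1 and 30.2 CPM in janus-2, against 4.38 and 3.99 CPM in Col-0, a log2 fold change of 2.88 (standard error 0.11). LSU4 was the exception, at 3.69 and 3.37 CPM in janus-2, against 8.96 and 9.53 CPM in Col-0, a log2 fold change of -1.39 (standard error 0.16). LSU2 and LSU4 thus went in opposite directions although they are adjacent. The LSU, APS, APR and sulfate transporter families hold similar copies, and how reads common to such copies were counted is not given in the sources used here, so that levels of single copies are uncertain to that extent. Of all 35 genes in these further lists, 18 were higher, 5 lower and 12 not called, with a median log2 fold change of 0.64. Over all tested genes 18.5% were higher and 27.2% lower. Without the list for the response to sulfur limitation, 12 of 27 genes were higher and 4 lower, with a median of 0.47.

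**Figure D5:**
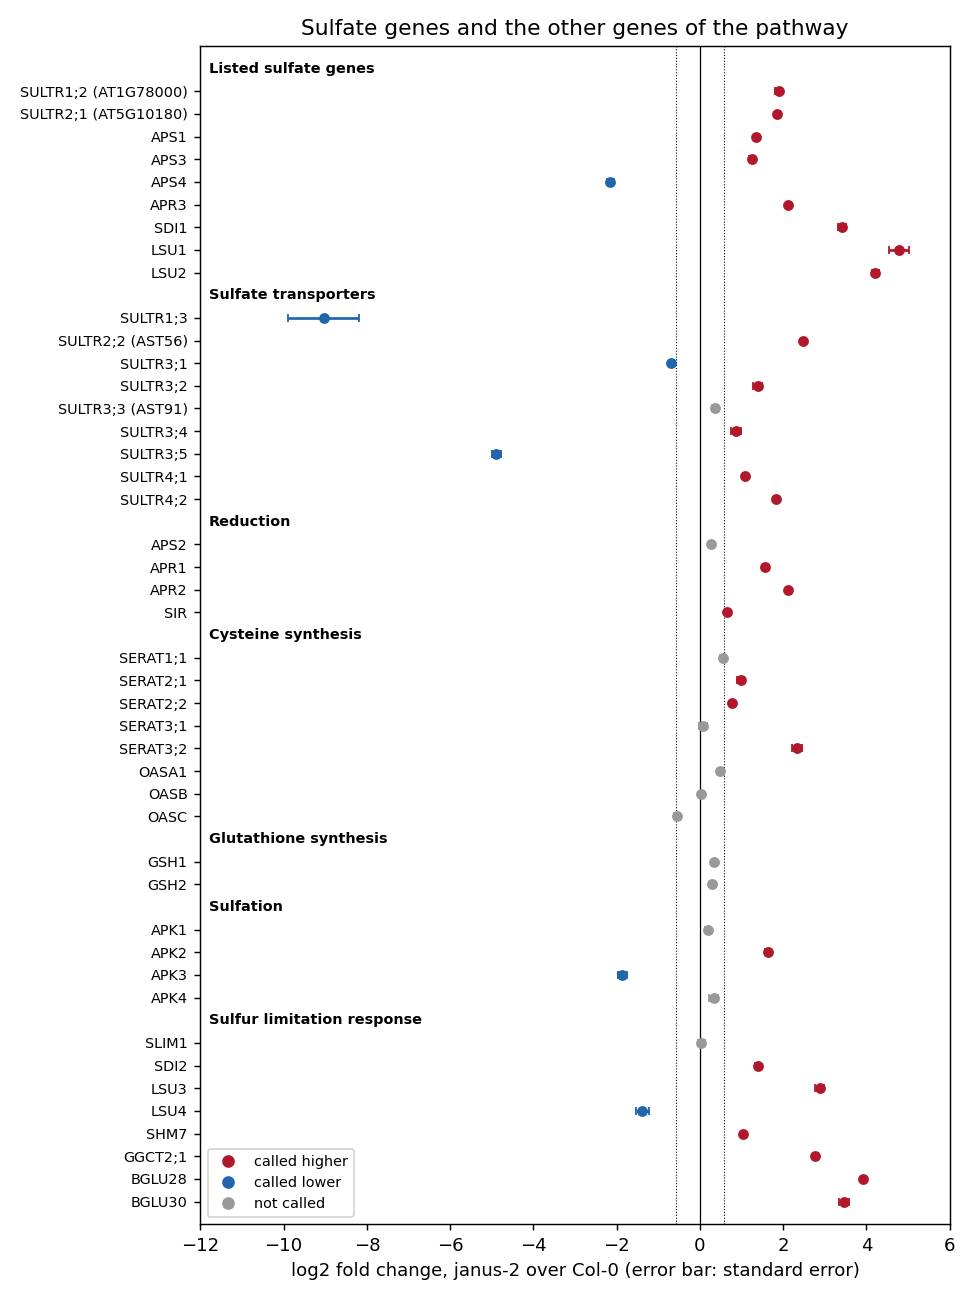
The log2 fold change of janus-2 over Col-0 (fitted by edgeR) with its standard error (DESeq2) for 9 sulfate genes and 35 further genes of the pathway, by function. Red points were called higher, blue lower and grey not called, and dotted lines mark a fold change of 1.5. The lowest point (AT1G22150), with 2 and 1 counts in janus-2, depends on the fit and is no bound.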

How the data were processed

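Messenger RNA and small RNA of janus-2 and Col-0 inflorescences were sequenced in 2 libraries of each genotype and assay. The authors deposited raw counts per gene or per mature miRNA, with no normalization. The submitters' processing notes name Bowtie, HTSeq and the TAIR10 build. The study's methods state that small RNA reads aligned to t/r/sn/snoRNA were removed and that genes of low variability were left out of its mRNA test. Whether either step shaped the deposited counts, and the versions, strandedness and handling of shared reads, are not given in the sources used here. Lines that name no gene were left out. Reads outside genes were 1.11% to 1.13% and ambiguous reads 2.15% to 2.34% of aligned mRNA reads. Reads outside listed miRNAs were 96.4% to 97.1% of aligned small RNA reads. In these shares the aligned reads are those on genes or miRNAs, those outside them and the ambiguous ones, and no other lines.

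Counts of each assay were fitted over all genes or miRNAs with edgeR 4.0.16 (filterByExpr, TMM, glmQLFit, glmQLFTest) in R 4.3.3. For mRNA this took the place of the study's Ballgown test, which needs more than counts, and for small RNA the study used edgeR with TMM too. Standard errors are those of DESeq2 1.42.0, CPM values use TMM-scaled library sizes, and the fits were tested on simulated counts. Symbols and neighbours come from the RefSeq table of TAIR10.1, which matched 28009 genes. The genes named are the 10 sulfate genes, all miR395 entries, the other SULTR, APS, APR, SDI and LSU genes, JANUS and the called genes of the further pathway lists. GSH1, GSH2, SLIM1, APG8A, AT4G14675, AT5G43770, OASB, OASC, AT2G17640 and the markers were named in addition. The 10 genes and the lists were chosen with earlier results of these data known. With 2 libraries a group, no test for outlying libraries was applied. Alternatives changed the scaling, the tool, the filter, the fold threshold, a replicate block and the libraries included. Figures were drawn with matplotlib 3.10.9. Sequences and coordinates are not used here.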

Additional observations from a re-analysis of the deposited data

How the results depend on the processing

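All 9 tested sulfate genes kept their direction and their call, 8 higher and 1 lower, under all 12 alternatives of the mRNA fit, and both forms of miR395 kept theirs under all alternatives of the small RNA fit. Leaving out 1 library at a time gave log2 fold changes of 4.72 to 4.85 for LSU1, 3.32 to 3.49 for SDI1, -2.19 to -2.11 for APS4, 4.43 to 5.95 for miR395a and 3.66 to 4.65 for miR395b. The numbers called over whole tables moved more. Without a fold threshold 9324 genes were higher and 9778 lower, and with a threshold of 2 a total of 2194 were higher. DESeq2 called 34 miRNAs higher. Upper-quartile scaling gave 42 higher and 67 lower miRNAs, and scaling by all aligned reads 43 and 85. Leaving out 1 small RNA library gave 36 to 71 higher miRNAs, with 36 without janus-2 replicate 1. Directions turned only for uncalled genes of the pathway: AT2G17640 (a serine acetyltransferase, -0.012 to 0.18 with 1 library left out, lowest without janus-2 replicate 1), OASB under upper-quartile scaling (-0.051), and SLIM1 under upper-quartile scaling (-0.039) and with 1 library left out (-0.040 to 0.11, lowest without Col-0 replicate 1). The cause was not tested. Replicate numbers did not pair the samples (correlation of same-numbered deviations -0.0134 for mRNA and -0.144 for small RNA), and a replicate block gave 4224 higher and 6180 lower genes and 49 higher and 41 lower miRNAs. A crossed pairing of the small RNA libraries, chosen after seeing the data, gave 58 and 50 miRNAs. The 2 libraries a group limit every comparison, and AT4G08620 and the MIR395 precursors lie at the depth limit.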

Other observations

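The MIR395 precursor loci were at or near 0 in the mRNA libraries. MIR395a, MIR395d and MIR395f had 0 counts in all 4 libraries, MIR395b had 2 and 1 counts and MIR395c 1 and 0 counts in janus-2 with 0 in Col-0, and MIR395e had 3 and 11 counts in janus-2, against 3 and 7 counts in Col-0. At these counts a difference between the genotypes was not detectable, while the mature forms differed by log2 fold changes of 5.02 and 4.09.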
